A study of Mus musculus with 8 samples.

Results

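Accessibility was described for 7 genes that embryonic neural progenitors are known to use early and to shut down later: Hmga2, Hmga1, Lin28a, Lin28b, Igf2bp1, Igf2bp2 and Igf2bp3. They were chosen by name from 21938 protein-coding genes, and their signal was read from every peak that overlapped the gene body or the 2 kb upstream of it in the mouse genome build GRCm38. These peaks fell into 130 of the 292532 regions obtained by merging the peaks of all samples. The assay was single-nucleus ATAC-seq, in which a transposase cuts open chromatin and the cuts are counted per nucleus. All 8 samples were brain tissue of wild-type (WT) mouse embryos, 2 each from the cortex (CTX), the medial (MGE), the lateral (LGE) and the caudal (CGE) ganglionic eminences, the latter 3 written jointly as GE. The age label was E12.5 for the 6 GE samples and for CTX replicate 1, and E14.5 for CTX replicate 2. The labels do not say whether replicates came from different litters or embryos, so p-values measure only the spread between these samples.

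The 7 genes form an RNA-based timer and its targets. HMGA1 and HMGA2 are small chromatin proteins that bind AT-rich DNA and keep fetal stem cells dividing. LIN28A and LIN28B bind precursors of the let-7 microRNAs and block their maturation, while mature let-7 pairs with sites in the messages of Hmga2, both Lin28 genes and the Igf2bp family. The IGF2BP proteins bind messages, protect them from decay and control where they are translated. In the developing forebrain the proteins of these genes are known from early progenitors and decline as neurogenesis proceeds. ATAC-seq shows whether the DNA of these genes is open, and not how much RNA or protein they make.

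The samples held 3465 to 6845 nuclei and 77387940 to 138873845 counts in peaks. Peaks had been called in each sample apart, from 103633 to 182638 per sample, so a sum over a gene grows with the length called as peak, and the covered length is given where it differs. Any 2 samples shared 15 to 56 nuclear barcodes, at most 1.17% of the smaller sample. The replicate 1 samples had 9.54% to 10.4% odd counts and the replicate 2 samples 5.17% to 5.85%, with each region present once on either side. The CTX pair differed in its markers, and against the order of its age labels: Neurod2, a factor of glutamatergic neurons, was at 173 CPM (counts scaled to the size of the library) in the library labelled E12.5 and at 17.1 in that labelled E14.5, and the progenitor filament gene Nes at 71.9 and 114.6. Over the glutamatergic list of 10 markers the summed level was 1429 CPM in the library labelled E12.5 and 1076 in the other (493 to 652 in GE), with 7 of 10 higher in the former. Over the progenitor list of 12 the sums were 1639 and 1892 CPM (1726 to 2472 in GE), with 3 of 12 higher in replicate 1. None of these 22 markers was at 0 in any sample. Both CTX libraries are therefore given apart, as the libraries labelled E12.5 and E14.5.

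All 7 genes had peaks in every sample, and none of them passed the test of CTX against GE at the gene level. The order of levels was led in every sample by Hmga2, at 211 to 345 CPM, and closed by Lin28a or, in LGE replicate 2, by Hmga1. A value in CPM is the share of all counts assigned to genes, after scaling by the trimmed mean of M-values (TMM), and long genes with many peaks collect more of it. Per covered kb the order differed: Hmga1 ran from 11.7 to 18.6 CPM per covered kb and Hmga2 from 5.12 to 10.5, beside a median over all genes of 9.48 to 14.8. A bulk sum cannot tell fewer nuclei of a type from less signal per nucleus. At an adjusted p of 0.05 or less, edgeR's quasi-likelihood test of CTX against GE called 0 of the 7, where 4.51% of the 17357 genes tested were called. DESeq2 also called 0 of 7, against 15.0% of all genes, and 1 of 7 had an unadjusted p under 0.05 in edgeR, against 18.4% of all genes.

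Hmga2 (chr10:120361275-120476469, minus strand, 115 kb) had the widest landscape, with 35 regions, 31 of them intronic and 17 present in all 8 samples. Its level was 273 CPM in the CTX library labelled E12.5 and 345 in that labelled E14.5. In GE it was 211 and 219.6 CPM in MGE, 314 and 334 in LGE and 284 and 241 in CGE. LGE was above MGE in both samples of each, and the CTX values overlapped those of GE. The log2 fold of CTX over GE was 0.23 ± 0.13 (SE, n = 2 and 6) with an adjusted p of 0.434 in edgeR. In means ± SD (n = 2 each) the eminences stood at 324 ± 14.1 CPM in LGE, 262 ± 30.4 in CGE and 215 ± 6.20 in MGE. The edgeR F test among the 3 eminences had an unadjusted p of 0.0258 and an adjusted p of 0.888, so the order LGE, CTX, CGE, MGE is a description. Of the 7 genes 0 were called among the eminences, where 0.0576% of all genes were, and 1 of 7 had an unadjusted p under 0.05, where 4.98% of all genes did. DESeq2 called 0 of 7 there as well, beside 2.82% of all genes.

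The promoter of Hmga2 and windows in 2 of its intronic regions are shown because the results below turn on them. The 250 bases before the RefSeq start (chr10:120476470-120476719, minus strand, build GRCm38.p6) consist of C or T at 70.8% of positions, and 0.414% of RefSeq promoters hold at least as much. Capitals mark the GC box GGGCGG, which lies here on the other strand and is found in 32.7% of 32851 promoters searched over the same length on both strands.
Hmga2 promoter: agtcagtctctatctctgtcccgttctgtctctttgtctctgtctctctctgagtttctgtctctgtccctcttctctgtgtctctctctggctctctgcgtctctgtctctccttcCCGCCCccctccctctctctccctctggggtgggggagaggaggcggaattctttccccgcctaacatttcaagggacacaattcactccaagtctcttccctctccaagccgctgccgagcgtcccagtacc
The 2 windows of 300 bases below come from the Hmga2 intronic regions called higher in CTX, each centred where the most samples had a peak (build GRCm38, plus strand). The motifs searched, on both strands, were CAGATG, an E-box that NEUROD and related factors bind, TAATTA, a homeodomain core, and ACAAAG, a SOX core. Capitals mark matches, and CAGATG occurs in 22.5%, TAATTA in 10.6% and ACAAAG in 25.8% of the 68274 windows of regions present in all 8 samples.
Hmga2 intron, chr10:120388417-120388716: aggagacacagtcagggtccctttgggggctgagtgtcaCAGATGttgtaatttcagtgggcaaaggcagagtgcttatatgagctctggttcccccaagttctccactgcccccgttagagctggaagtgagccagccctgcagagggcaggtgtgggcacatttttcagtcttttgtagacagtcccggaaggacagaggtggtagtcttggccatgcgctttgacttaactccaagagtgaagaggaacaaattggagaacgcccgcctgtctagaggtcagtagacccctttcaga
Hmga2 intron, chr10:120422421-120422720: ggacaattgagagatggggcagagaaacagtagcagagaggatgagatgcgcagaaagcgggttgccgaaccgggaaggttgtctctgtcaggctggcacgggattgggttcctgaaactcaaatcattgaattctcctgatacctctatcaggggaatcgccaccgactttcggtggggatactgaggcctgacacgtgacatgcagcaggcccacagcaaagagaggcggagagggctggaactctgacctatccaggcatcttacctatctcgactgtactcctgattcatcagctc

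Of the 17 Hmga2 regions present in all 8 samples, 2 were called higher in CTX than in GE and 0 lower, where 9.49% of the 68274 regions tested were called higher and 5.39% lower. Region CPM are shares of the counts in the regions present in all 8 samples. The intronic region chr10:120421685-120423498, 53.9 kb from the start of the gene, was at 38.6 CPM in the library labelled E12.5 and 17.4 in that labelled E14.5. The 6 GE samples ran from 4.87 to 8.80 CPM, so the groups did not overlap, and the share of all regions without overlap was not counted. It was called with a log2 fold of 2.06 ± 0.29 (SE) and an adjusted p of 0.00634 in edgeR, and the fold was 1.76 with the covered length as an offset and 1.39 without CTX replicate 1. The intronic region chr10:120383403-120389349, 90.1 kb from the start and named after its values were seen, was at 28.8 and 44.3 CPM in the CTX libraries. In GE it was at 3.03 and 4.51 CPM in MGE, 26.5 and 27.7 in LGE and 20.1 and 14.9 in CGE. In CPM MGE was far below the other eminences there, and LGE came close to the lower CTX value. The covered length also differed. Peaks covered 924 and 2390 bp in MGE, 3670 and 4705 in LGE, 4344 and 5117 in CGE and 5740 and 5493 in CTX. The part of this length in the low MGE values was not tested. The region's log2 fold of CTX over GE was 1.59 ± 0.23 (adjusted p of 0.00646 in edgeR). It dropped to 0.71 with the covered length as an offset and was then no longer called (adjusted p of 0.132). The adjusted p among the eminences was 0.0599. The promoter region of Hmga2, chr10:120471856-120478934, lay at 51.7 and 90.9 CPM in the CTX libraries and between 63.2 and 92.8 in GE, with a log2 fold of -0.08 ± 0.22 and an adjusted p of 0.865 in edgeR. The window chr10:120388417-120388716 of this gene holds 1 CAGATG, and chr10:120422421-120422720 holds none of the searched letters.

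**Figure D1:**
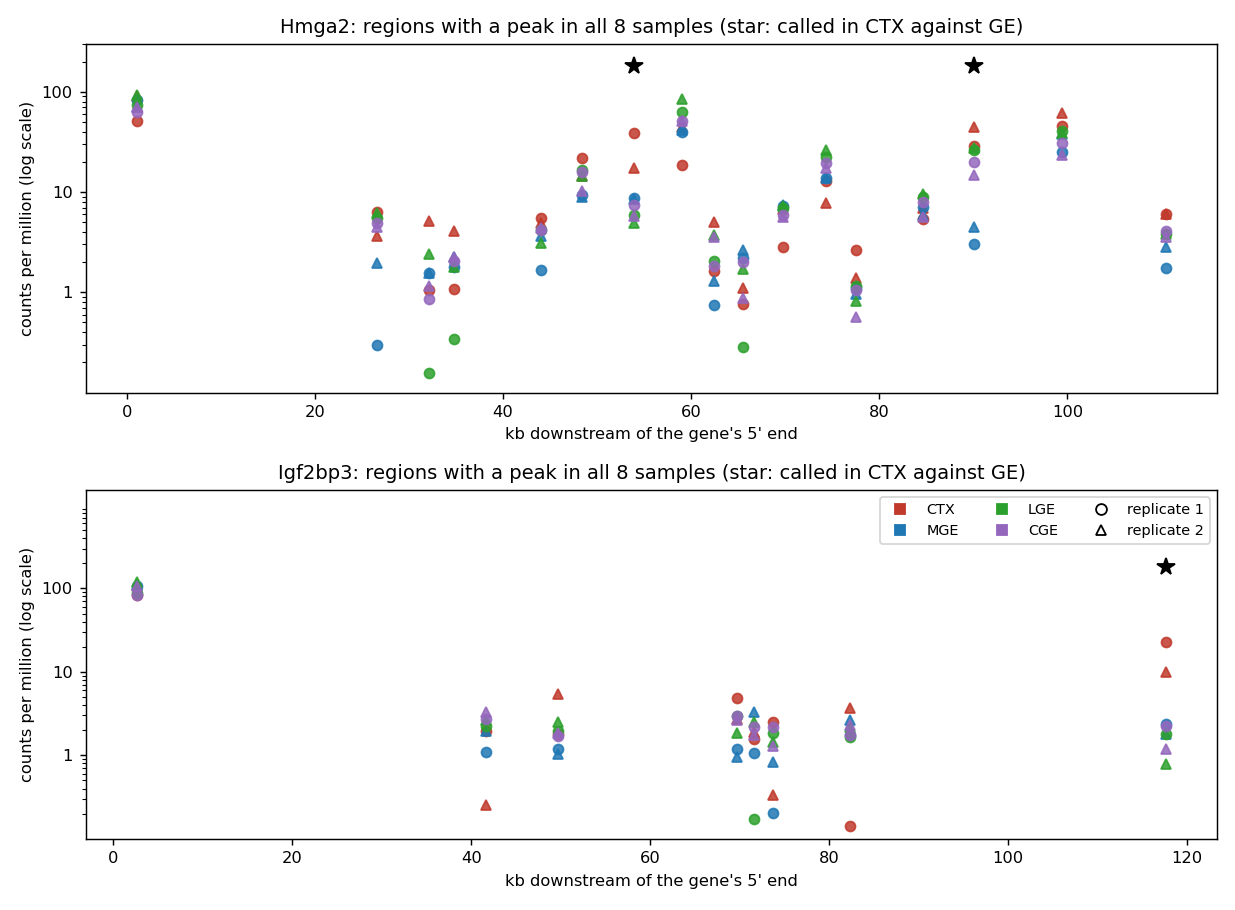
CPM (log scale) in each of the 8 samples for every region of Hmga2 (upper) and Igf2bp3 (lower) that had a peak in all 8 samples, by distance in kb from the gene's 5′ end; colours are brain regions, circles replicate 1, triangles replicate 2, and stars mark regions called in CTX against GE. The starred Hmga2 intron near 53.9 kb has CTX at 38.6 and 17.4 above all GE samples (4.87 to 8.80), and the starred Igf2bp3 intron near 118 kb has CTX at 22.5 and 9.91 (GE 0.782 to 2.38).

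Hmga1 (chr17:27556497-27563674, plus strand, 7.18 kb) is a short gene with 3 regions, of which 1, its promoter, was present in all 8 samples. It stood at 59.7 CPM in the CTX library labelled E12.5 and 96.7 in that labelled E14.5. In GE it was 110.4 and 80.4 CPM in MGE, 78.4 and 85.2 in LGE and 59.97 and 73.5 in CGE. The CTX pair spanned most of the GE range, and the log2 fold was -0.04 ± 0.21 (SE) with an adjusted p of 0.9503 in edgeR. A near-identical copy of the gene, Hmga1b on chromosome 11, had 0.892 to 5.39 CPM, and reads of the copies can be split between them. The promoter region chr17:27554010-27559472 carried nearly all of the Hmga1 signal, with a log2 fold of -0.00 ± 0.24.

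Lin28a (chr4:134003330-134018841, minus strand, 15.5 kb) was the gene of the 7 with the highest ratio between the CTX libraries. It was at 4.21 CPM in the library labelled E12.5 and at 46.6 in that labelled E14.5, from 427 and 3500 counts. With exact Poisson intervals at 95%, which cover counting error only, these are 3.82 to 4.63 and 45.1 to 48.2 CPM. In GE it was 47.8 and 39.3 CPM in MGE, 48.6 and 106.4 in LGE and 30.2 and 34.5 in CGE. The library labelled E12.5 thus lay below every GE sample and that labelled E14.5 within their range. Over both, the log2 fold of CTX was -0.91 ± 0.76 (SE), with an adjusted p of 0.591 in edgeR. With 1 CTX library left the spread comes from the GE pairs alone, and the lone library is assumed to vary like them. Without CTX replicate 2 the fold was -3.50 and called (adjusted p of 0.00790), where 10.4% of genes were called and 1.53% called lower, and without CTX replicate 1 it was -0.04 and not called, where 3.72% of genes were called and 1.29% called lower.

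Some of the Lin28a counts came from a peak over its 3′ end that also reached Dhdds, a neighbouring gene of dolichol synthesis, or its 2 kb upstream flank. That peak did not reach Lin28a in the CTX library labelled E12.5 (0% of its counts). It gave 42.8% of the Lin28a counts in that labelled E14.5, 60.2% in LGE replicate 2 and 15.6% to 34.3% in the other GE samples. Outside LGE replicate 2, most counts of the merged region there, chr4:134000285-134003907, lay in other peaks that did not reach Lin28a. The Lin28a promoter region itself, chr4:134016014-134021062, was at 3.23 and 12.6 CPM in the CTX libraries and at 14.1 to 33.9 in GE. The groups did not overlap, as was so for 19.3% of all genes at the gene level. The share of all regions without overlap was not counted. Peaks covered 1544 and 3891 bp of it in CTX and 4285 to 5002 bp in GE. This promoter region held 343 and 949 of the CTX counts, so most of the gap between these libraries lay outside it. The rest lay in the peak shared with Dhdds and in smaller ones such as the exon chr4:134004451-134006068 (84 and 599 counts). The log2 fold of the promoter region was -1.59 ± 0.52 with an adjusted p of 0.0876 in edgeR, short of the threshold. The 250 bases before the RefSeq start (chr4:134018817-134019066, minus strand, GRCm38.p6) are shown because this promoter region lay lower in both CTX libraries than in any GE sample. They hold no GC box and no TATAAA (in 12.4% of promoters), so no letters are in capitals.
Lin28a promoter: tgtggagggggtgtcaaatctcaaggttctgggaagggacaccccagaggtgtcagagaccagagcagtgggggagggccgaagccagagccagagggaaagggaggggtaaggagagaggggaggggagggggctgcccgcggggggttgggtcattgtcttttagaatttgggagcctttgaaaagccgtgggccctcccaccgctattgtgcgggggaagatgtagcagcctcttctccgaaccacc

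Lin28b (chr10:45376620-45486395, minus strand, 110 kb) had 18 regions, 15 of them intronic. It was at 49.8 CPM in the CTX library labelled E12.5 and 106.3 in that labelled E14.5, against 94.9 and 119 in MGE, 98.7 and 97.1 in LGE and 101 and 99.1 in CGE. The 6 GE samples were close together, with a mean of 102 ± 8.81 CPM (SD, n = 6), and the library labelled E12.5 stood alone below them. The log2 fold of -0.38 ± 0.26 had an adjusted p of 0.518 in edgeR. With the spread again from the GE pairs alone, it was -1.03 and called without CTX replicate 2 (adjusted p of 0.0138) and 0.07 without CTX replicate 1. The strongest region lay at the outer 5′ end, chr10:45485151-45487564, at 21.5 and 51.2 CPM in the CTX libraries and 47.1 to 62.7 in GE, with a log2 fold of -0.62 ± 0.30 and an adjusted p of 0.24 in edgeR. The region at the coding transcript's start, chr10:45467807-45471765, was at 7.87 and 22.7 CPM in CTX and 14.6 to 23.97 in GE, with a log2 fold of -0.23. At both sites the library labelled E12.5 was the lowest of the 8.

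**Figure D2:**
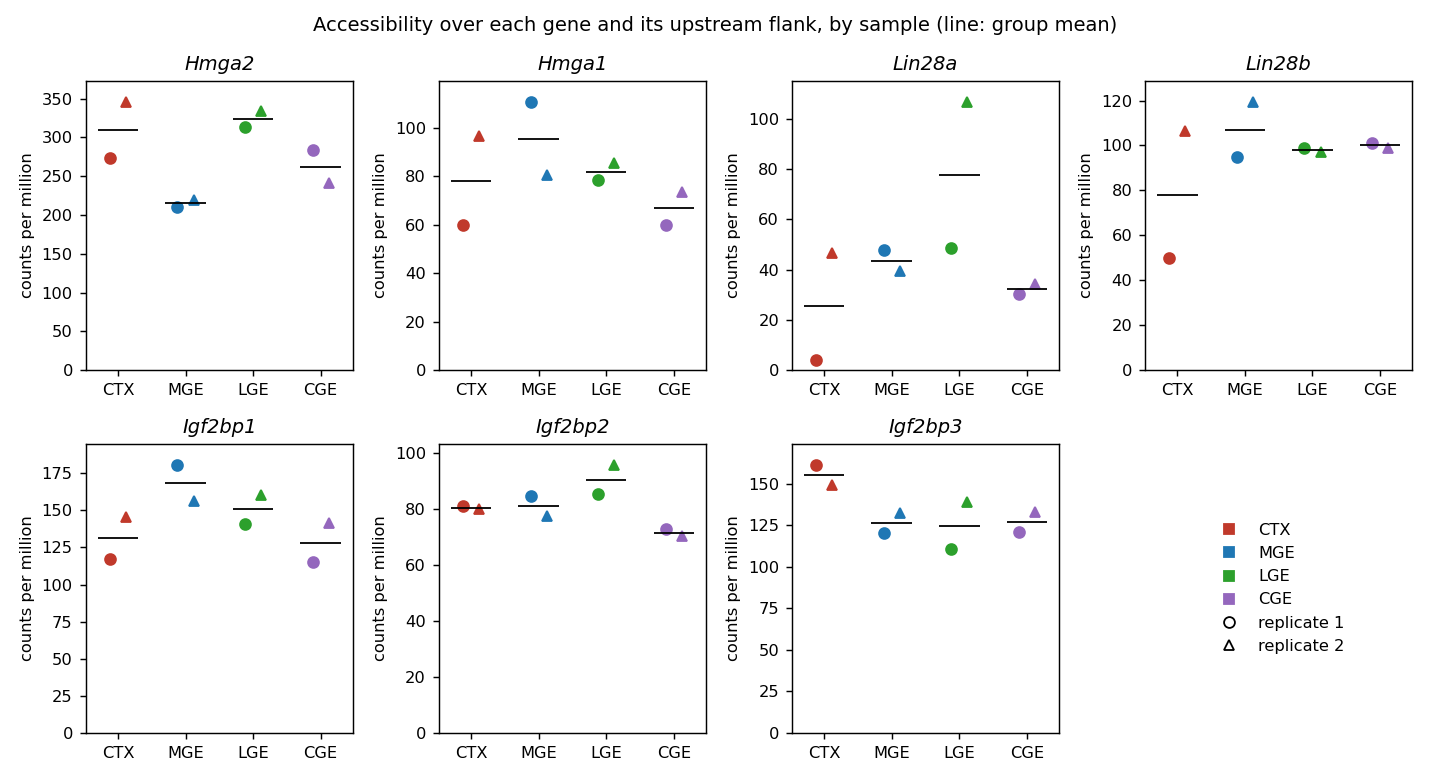
CPM over each of the 7 genes and its 2 kb upstream flank, with 1 panel per gene, 1 point per sample (circle replicate 1, triangle replicate 2) and a line at the mean of each region's 2 samples; every axis starts at 0. CTX replicate 1 is the lowest point for Lin28a (4.21) and Lin28b (49.8), and both CTX points of Igf2bp3 (161 and 149) lie above the GE points (111 to 139).

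Igf2bp1 (chr11:95957163-96005940, minus strand, 48.8 kb) encodes the protein of the family known for binding the messages of Myc and beta-actin. It was at 117 CPM in the CTX library labelled E12.5 and 145 in that labelled E14.5, at 180.5 and 157 in MGE, 141 and 160.2 in LGE and 115 and 141 in CGE. The groups overlapped throughout, with a log2 fold of CTX over GE of -0.18 ± 0.15 and an adjusted p of 0.599 in edgeR. Its promoter region, chr11:96002413-96009282, held most of the signal, at 80.7 and 89.1 CPM in CTX and 67.3 to 116 in GE.

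Igf2bp2 (chr16:22059009-22163299, minus strand, 104 kb), the family member known to stay in use in adult tissues, had the closest pair of CTX values. It stood at 81.0 and 80.1 CPM in the libraries labelled E12.5 and E14.5, at 84.5 and 77.5 in MGE, 85.2 and 95.7 in LGE and 72.8 and 70.3 in CGE. The log2 fold was -0.00 ± 0.11. The promoter region chr16:22160200-22164846 was at 52.1 and 59.0 CPM in CTX and 47.6 to 67.7 in GE, with a log2 fold of -0.07.

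Igf2bp3 (chr6:49085223-49214957, minus strand, 130 kb) was the only gene of the 7 whose CTX and GE samples did not overlap, as for 19.3% of all genes. It was at 161 CPM in the CTX library labelled E12.5 and 149 in that labelled E14.5, and at 120.4 and 132 in MGE, 111 and 139 in LGE and 121 and 133 in CGE. The log2 fold of 0.30 ± 0.13 had an unadjusted p of 0.0475 and an adjusted p of 0.264 in edgeR. Counted over peaks within 1 kb of a start site the fold was -0.14, and its promoter region chr6:49208283-49216322 lay at 82.7 and 110.4 CPM in CTX and 82.5 to 119 in GE. The higher CTX total came with intronic peaks. The region chr6:49096316-49098355, 118 kb into the gene, was at 22.5 and 9.91 CPM in the CTX libraries and 0.782 to 2.38 in GE. It was called with a log2 fold of 3.28 ± 0.42 (SE) and an adjusted p of 0.00494 in edgeR, and the fold was 1.65 with the covered length as an offset (2040 and 1153 bp in CTX, 345 to 686 in GE). A further intron, chr6:49155871-49157509, had 1839 counts in the library labelled E12.5, 9 in CGE replicate 2 and no peak elsewhere. The window of the called region where the most samples had a peak is shown because that region had the largest CTX fold among the 46 regions of the 7 genes that were tested (GRCm38, plus strand, capitals for 1 CAGATG and 1 ACAAAG).
Igf2bp3 intron, chr6:49097083-49097382: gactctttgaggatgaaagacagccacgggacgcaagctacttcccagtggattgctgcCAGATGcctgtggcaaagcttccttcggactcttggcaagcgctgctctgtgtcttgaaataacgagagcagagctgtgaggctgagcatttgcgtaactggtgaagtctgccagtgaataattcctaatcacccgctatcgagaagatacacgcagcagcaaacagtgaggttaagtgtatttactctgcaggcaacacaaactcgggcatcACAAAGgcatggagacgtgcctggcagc

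Over all 7 genes, 46 regions were present in all 8 samples and 3 of these were called higher in CTX and 0 lower, where 9.49% of all regions tested were called higher and 5.39% lower (14.9% in all). Of the 7 genes' regions, 15 of 46 had an unadjusted p under 0.05, beside 28.3% of all regions. DESeq2 called 10 of 46, where it called 23.1% of all regions. The edgeR test called 8 of 46 without CTX replicate 1, 17 without CTX replicate 2 and 6 without MGE replicate 2, where 24.2%, 26.3% and 10.7% of all regions were called. Another 35 regions had a peak in 1 sample only, with counts in CTX replicate 1 for 7, in CTX replicate 2 for 11 and in a GE sample for 16. The promoter regions of 6 genes had log2 folds between -0.23 and -0.00, and that of Lin28a was the lowest at -1.59. For Lin28b this is the region at the start of the coding transcript, while the outer 5′ end had -0.62. Among the eminences 0 of the 46 regions were called, where 0.103% of all regions were.

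The libraries labelled E14.5 and E12.5 are single samples, so their ratios are given as values with no test, beside the ratios of replicate 2 to replicate 1 in the eminences, where the age label is shared. Each ratio is replicate 2 over replicate 1. Whether the age labels of the CTX pair were exchanged was not tested, and if so each CTX ratio would read as E12.5 over E14.5. The CTX ratio was 11.1 for Lin28a, 2.14 for Lin28b, 1.62 for Hmga1, 1.26 for Hmga2, 1.24 for Igf2bp1, 0.989 for Igf2bp2 and 0.925 for Igf2bp3. The 3 eminence ratios ran from 0.824 to 2.19 for Lin28a, 0.979 to 1.26 for Lin28b, 0.728 to 1.23 for Hmga1, 0.849 to 1.06 for Hmga2 and 0.868 to 1.23 for Igf2bp1. For these 5 of 7 genes, Igf2bp1 by a small margin, the CTX ratio was above all 3 eminence ratios, as for 28.6% of 16256 genes. That of Igf2bp3 was below all 3 (1.10 to 1.26), as for 32.1% of genes, in CPM over the gene but not per covered kb, as given below. A CTX ratio of 1.5 or more was reached by 3 of 7, as by 8.14% of genes. As high a ratio as that of Lin28a occurred in 0.0861% of genes, as high as Lin28b in 2.12% and as high as Hmga1 in 5.95%, and the median over all genes was 0.998.

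Part of these ratios went with the length called as peak. Lin28a was covered by 1.95 kb of peaks in the library labelled E12.5, 8.58 kb in that labelled E14.5 and 6.85 to 10.6 kb in GE. Per covered kb its level was 2.16 and 5.43 CPM, a ratio of 2.51, still above the eminence ratios of 0.830 to 1.41. With peaks over a single gene only the ratio was 6.44, and over peaks within 1 kb of a start site 6.11. Lin28b kept ratios of 1.34 per covered kb and 2.64 near start sites, and Hmga1 of 1.53 in both. Hmga2 was at 0.903 per covered kb (34.6 and 48.3 kb covered), above its eminence ratios of 0.752 to 0.821. Near its start site it was at 1.61. Igf2bp3 turned to 1.19 per covered kb, above its eminence ratios of 0.613 to 0.891. Near its start site it was at 1.17, within those of the eminences (1.13 to 1.26). Igf2bp2 was at 0.958 per covered kb, above its eminence ratios of 0.623 to 0.822. Igf2bp1 was at 1.02 per covered kb (eminences 0.874 to 1.01). Near its start site it was at 1.01, within those of the eminences (0.904 to 1.29). It was also within them in regions shared by all 8 samples and over peaks of a single gene. The median over all genes per covered kb also rose in CTX, from 9.91 to 10.5 CPM in replicates 1 and 2. It fell in MGE (12.3 to 10.6), LGE (14.8 to 11.7) and CGE (11.2 to 9.48). A CTX ratio above the eminence ratios per covered kb is therefore not particular to these genes. The share of all genes on these measures was not counted. The larger progenitor marker sum of the library labelled E14.5 went with the higher LIN28 and HMGA levels, and its part in them was not tested.

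**Figure D3:**
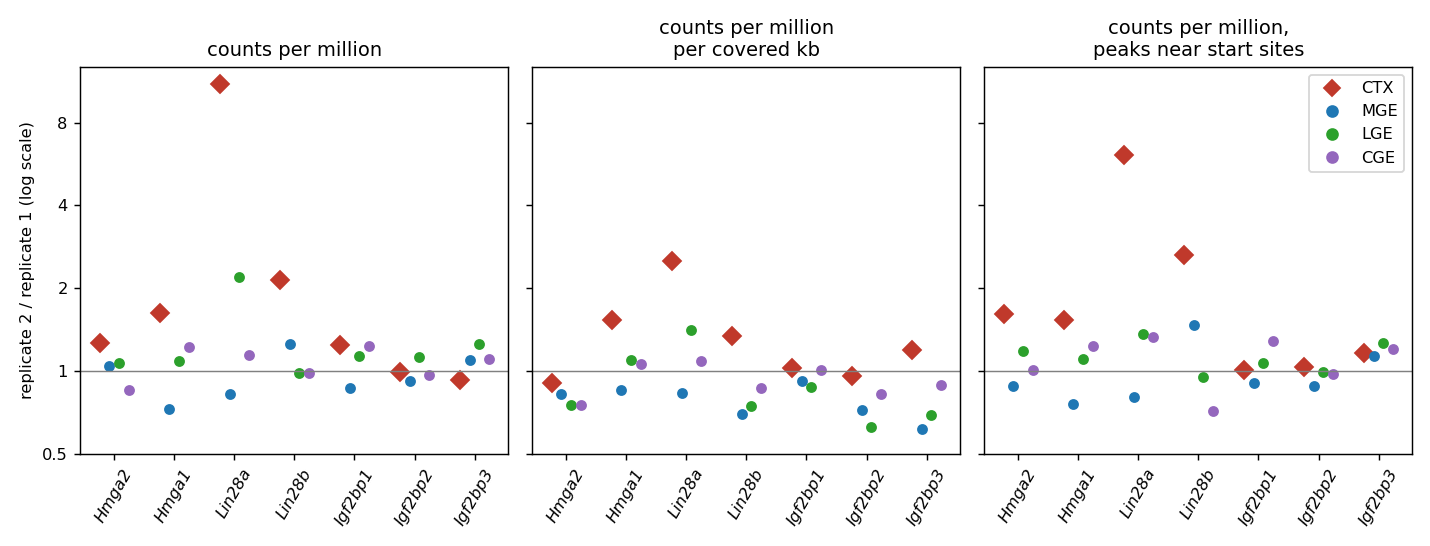
Ratio of replicate 2 to replicate 1 (log scale) for each of the 7 genes in CTX (diamonds) and in MGE, LGE and CGE (circles), from CPM over the gene (left), per covered kb (middle) and over peaks within 1 kb of a start site (right); the grey line marks equality. Lin28a in CTX stands highest in every panel, at 11.1, 2.51 and 6.11, and the CTX values of Igf2bp2 stay near 1.

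Within the CTX libraries the levels of Hmga2 and Lin28a were read by cluster of nuclei. Nuclei were clustered on the 68228 regions that overlap none of the 7 genes. At the finer resolution CTX replicate 1 split into a cluster of 2676 nuclei with Neurod2 at 194 CPM and Sox2, a progenitor factor, at 189, and a cluster of 1124 nuclei with Neurod2 at 69.3 and Sox2 at 415. The class rule named both glutamatergic neuron-like, the latter by a narrow margin, with 4 of 10 glutamatergic markers raised (mean log2 fold of 0.37) and 3 of 12 progenitor markers (0.26). Hmga2 was at 210.1 CPM in the former and 370.4 in the latter. Lin28a was at 3.87 and 3.30 CPM and Lin28b at 47.4 and 36.4, low in both. In CTX replicate 2 the main cluster of 3422 nuclei, which no marker list named, had Sox2 at 373 CPM, Hmga2 at 369.5 CPM, Lin28a at 49.4 and Lin28b at 107. A glutamatergic neuron-like cluster of 532 nuclei there had Hmga2 at 190.1 CPM, Lin28a at 20.5 and Lin28b at 132. The cluster with the highest Sox2 in each library had Hmga2 at 370.4 and 369.5 CPM, and Lin28a at 3.30 and 49.4. All clusters of a library were read from the same peaks, called over the whole library. These covered 1.95 kb of Lin28a in CTX replicate 1 and 8.58 kb in CTX replicate 2. Cluster values therefore carry that difference, and cannot show whether Lin28a differs between nuclei alike in Sox2. In the clusters of CTX replicate 2 these Lin28a sums include the peak shared with Dhdds. That peak did not reach Lin28a in CTX replicate 1, whose values below are higher only because the total is smaller. With peaks over a single gene only, chosen after seeing the data, Lin28a was at 5.06 and 4.30 CPM in the clusters of CTX replicate 1 and at 35.0 in the main and 23.7 in the glutamatergic neuron-like cluster of CTX replicate 2. These are sums of nuclei of 1 sample each, with no test.

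In the eminences, nuclei of the progenitor-like and the GABAergic neuron-like class could be compared within each of 6 libraries, whose classes share a peak list. Class names rest on marker lists of progenitors and of GABAergic neurons, the inhibitory neurons that the eminences produce, and 1294 to 3161 progenitor-like nuclei and 1443 to 3519 GABAergic neuron-like nuclei were summed per library. In the progenitor-like class 6 of the 7 genes were higher and Lin28b was lower, all called by edgeR's quasi-likelihood test with the library as a block. For Lin28a this rests on the peak shared with Dhdds: with peaks over a single gene only its fold was -0.08 and not called, and over start-site peaks, where 4 of the 7 were called, it was -0.13. That test called 51.3% of the 17262 genes, 25.0% higher and 26.3% lower, and 57.3% had an unadjusted p under 0.05, so a call alone says little of these genes. The size of the Hmga2 difference stood apart: 382 ± 63.6 CPM (SD, n = 6) in progenitor-like and 168 ± 39.0 in GABAergic neuron-like nuclei. Its log2 fold was 1.21 ± 0.07 (SE, adjusted p of 1.21e-06), with each library between 1.04 and 1.56, and 1.17% of genes had as high a fold.

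The Hmga2 difference was uneven along the gene. Of its 17 regions present in all samples 16 had the higher mean in progenitor-like nuclei, with log2 ratios from 0.06 to 1.95, and 11 were higher there in 6 of 6 libraries. The ratio was 0.89 at the promoter (93.1 and 50.2 CPM) and highest at the intron chr10:120413036-120415036, where the levels were low (3.17 and 0.746 CPM). The introns chr10:120415353-120419600 (79.7 and 23.9 CPM) and chr10:120375263-120378857 (48.1 and 15.1 CPM) were higher in 6 of 6 libraries. The intron higher in CTX, chr10:120421685-120423498, was at 9.23 CPM in progenitor-like and 3.69 in GABAergic neuron-like nuclei of the eminences. Median counts per nucleus relative to the sample were 1.16 and 1.26 in the progenitor-like clusters and 0.842 and 0.820 in the GABAergic neuron-like ones, and the part of depth in these values was not tested.

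The other genes differed less between the classes. Hmga1 had a log2 fold of 0.36 ± 0.06 (94.4 ± 21.7 and 73.2 ± 15.2 CPM, adjusted p of 6.41e-04 in edgeR). Igf2bp1, Igf2bp2 and Igf2bp3 had folds of 0.19, 0.20 and 0.20, each higher in 6 of 6 libraries, and 43.4% to 44.3% of genes had as large a change. Lin28b had a fold of -0.32 ± 0.04 (91.6 ± 8.92 and 114 ± 12.49 CPM, adjusted p of 6.28e-05), lower in every library. Its intron chr10:45410266-45412537 was at 4.82 and 12.4 CPM, the log2 ratio farthest from 0 in the gene (-1.34). Lin28a had a fold of 0.49 ± 0.09 (adjusted p of 0.00125), which turned to -0.08 with peaks over a single gene only (adjusted p of 0.307), and its promoter region was lower in progenitor-like nuclei in 6 of 6 libraries (20.2 and 26.0 CPM). The merged region chr4:134000285-134003907 was at 48.5 and 37.6 CPM. It holds the peak shared with Dhdds and, outside LGE replicate 2, also peaks that do not reach Lin28a. Within 1 kb of start sites 4 of 7 genes were called, where 51.1% of genes were (25.4% higher), and Lin28a (-0.13), Lin28b (-0.03) and Igf2bp1 (0.03) were not.

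**Figure D4:**
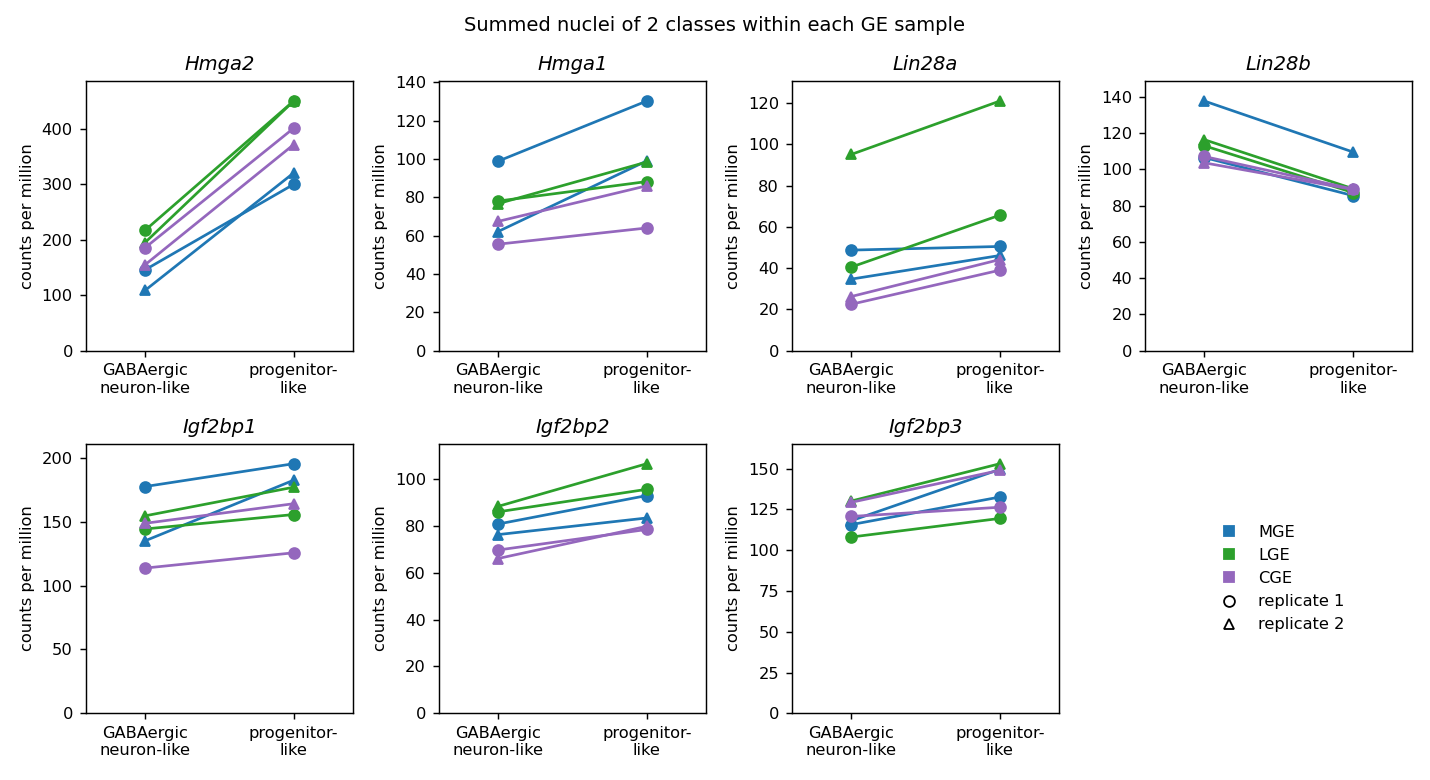
CPM over each gene in summed GABAergic neuron-like (left) and progenitor-like (right) nuclei of the 6 GE libraries, with a line joining the classes of a library; colours are eminences, circles replicate 1 and triangles replicate 2, and axes start at 0. Every Hmga2 line climbs, from 168 to 382 on average, every Lin28b line goes down, and Lin28a of LGE replicate 2 lies above the other libraries in both classes.

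The LIN28 proteins act on let-7, and its genes were read in the same way, from peaks over the miRNA or the 2 kb upstream of it. Mature let-7 miRNAs share the seed GAGGUAG, bases 2 to 8, which pairs with target messages, and the miR-125 family, the mammalian relatives of worm lin-4, shares CCCUGAG. Of the 11 mature sequences in RefSeq's set for these loci 9 carry the former seed and 2 the latter. Those of the loci with peaks are shown, with the seed in capitals.
let-7b-5p: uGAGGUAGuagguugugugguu
let-7c-5p: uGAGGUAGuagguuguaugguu
let-7e-5p: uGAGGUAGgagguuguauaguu
let-7i-5p: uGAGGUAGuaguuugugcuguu
miR-125a-5p: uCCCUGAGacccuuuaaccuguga
miR-125b-5p: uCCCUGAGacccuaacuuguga

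Of 15 let-7, miR-98 and miR-125 genes 5 had a peak in all 8 samples and 7 in none. Mirlet7i was even, at 63.9 and 64.0 CPM in the CTX libraries labelled E12.5 and E14.5 and 64.1 to 77.3 in GE. Mirlet7e and Mir125a, which lie side by side and share their peaks, were at 113 and 178 CPM in CTX and 124 to 137 in GE. Mir125b-1 was at 165 and 105 CPM in CTX and 122 to 189 in GE. Mir125b-2 was at 78.0 CPM in the library labelled E12.5 and 16.9 in that labelled E14.5, with GE at 27.1 to 36.4, so the CTX libraries lay on either side of GE. Its neighbour in the same cluster on chromosome 16, Mirlet7c-1, was named after its values were seen: it had 6934 counts (68.4 CPM) in the library labelled E12.5, no peak in that labelled E14.5 and at most 0.646 CPM in GE. Mirlet7c-2 and Mirlet7b, likewise named after their values were seen, shared a peak of 3373 counts (33.3 CPM) in the library labelled E12.5. In the library labelled E14.5 Mirlet7b had 0.493 CPM and Mirlet7c-2 no peak. Of the GE samples MGE replicate 1 had 26.9 CPM at Mirlet7b and 0.0931 at Mirlet7c-2, and the others no peak at either. The spans read for both genes overlap, so such values depend on where the peaks of a sample ended. Covered length was not compared at the miRNA genes. The library with the lowest Lin28a and Lin28b levels had the highest level at Mirlet7c-1, Mirlet7c-2, Mirlet7b and Mir125b-2. It had the lowest level at Mirlet7e with Mir125a and, by a small margin, at Mirlet7i, and lay within the GE range at Mir125b-1. These relations were not tested.

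**Figure D5:**
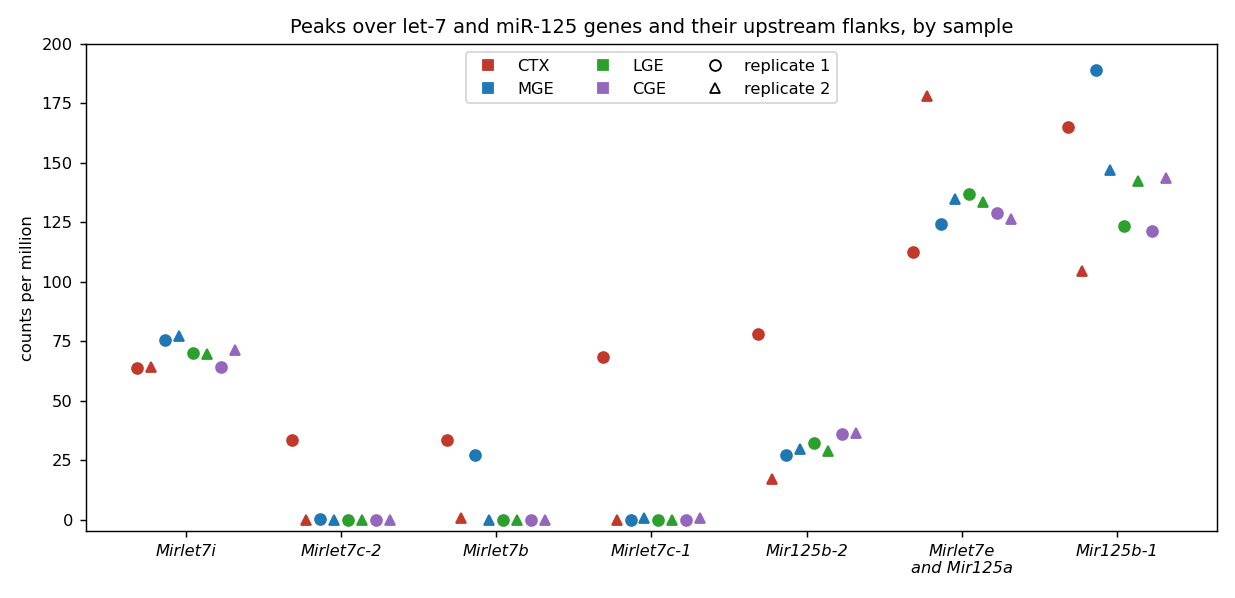
CPM in each of the 8 samples (colours brain regions, circles replicate 1, triangles replicate 2) for peaks over the let-7 and miR-125 genes with a peak in any sample and their 2 kb upstream flanks. CTX replicate 1 stands far above the other samples at Mirlet7c-1 (68.4) and Mirlet7c-2 (33.3) and is highest at Mir125b-2 (78.0), while Mirlet7i is level in all samples (63.9 to 77.3).

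The wider LIN28 and let-7 pathway was given by 40 further genes in 4 lists, all of them tested. In CTX against GE 0 were called higher and 1 lower, where 3.65% and 0.858% of all genes were. The gene called was Dis3l2, the exonuclease that degrades uridylated let-7 precursors, at 65.9 and 68.2 CPM in the CTX libraries and 89.2 to 106 in GE. Its log2 fold was -0.56 ± 0.10 (SE) with an adjusted p of 0.0288 in edgeR. The call was lost with the covered length as an offset (fold of -0.67, adjusted p of 0.255), in regions shared by all 8 samples (-0.46, 0.0944) and over start-site peaks (-0.03, 0.969). It was also lost without any 1 sample other than CTX replicate 2 or MGE replicate 2, with folds that stayed between -0.58 and -0.54. In all, 3 genes of the 40 were called without CTX replicate 2 (10.4% of all genes), 1 without MGE replicate 2 (4.26% of all genes) and 0 without any other sample. Among 13 let-7 processing genes the median log2 fold was -0.05 with 5 above 0, and among 20 let-7 targets and partners it was -0.00 with 10 above 0. The 5 ribonucleoprotein partners of the IGF2BP proteins had a median of -0.19 with 0 above 0 and 0 called. Cdkn2a and Cdkn2b, the locus that HMGA2 is known to hold down, had a median of -0.04. The median over all genes was -0.00.

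The genes most like each of the 7 were found by Pearson's r of log2(CPM + 1) over the 8 samples, among genes more than 1 Mb away with a mean of 10 CPM or more. Hmga2 was most like Fzd8 (r = 0.970) and Prdm13 (0.961), Hmga1 like Mrpl58 (0.9749), Lin28a like Zcchc3 and 6820408C15Rik (both 0.988) and Lin28b like Gins1 (0.981) and Dusp5 (0.972). Igf2bp1 was most like Rxrb (0.988) and Aurkb (0.984), Igf2bp2 like Pfkm (0.951) and Acp6 (0.929) and Igf2bp3 like P4ha1 (0.966) and Ksr2 (0.965). Such values are the highest of many genes over few samples that share libraries and depth, and are a description. Within the set r was 0.912 for Hmga1 with Igf2bp1 and 0.834 for Lin28a with Lin28b, and -0.0468 for Hmga2 with Lin28b.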

How the data were processed

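Nuclei of 8 WT samples were profiled by droplet single-nucleus ATAC-seq. Per the labels, the submitters' processing notes name Cell Ranger ATAC 1.2.0 and the build GRCm38 (mm10); the deposited values are raw counts per peak and nuclear barcode, mostly even as from both fragment ends, with peaks called per sample. The motif matrices were not used. No peak passed a GRCm38 chromosome end. The paper supplied with the series describes RNA and only its style was used.

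All 39253 barcodes were kept and no doublet caller was run. Counts were summed per sample. A gene's count took each peak over the GENCODE M21 body or 2 kb upstream, also where a peak touched several genes. Tests used edgeR 4.0.16 (R 4.3.3: TMM, filterByExpr, quasi-likelihood) on all genes or regions, with 4 groups of 2 and Benjamini-Hochberg adjustment, and DESeq2 1.42.0 as an alternative. On simulated counts the gene test of CTX against GE recovered 98% of log2 changes of 1, the region test 45% and the class test 100%. All recovered 100% of changes of 2. Within each test the simulated features had the same fixed spread, with no differences in called length or between the CTX libraries. These shares therefore do not give the power for genes such as Lin28a, whose CTX libraries lay far apart. Nuclei were clustered (TF-IDF scaled by 10000, 30 components without the leading one, 20 neighbours, Leiden 0.5 or 1.0). A class needed 3 markers of its list at 10 CPM or more with a log2 fold above 0.5, a mean of 0.25 over the list and no better list, a rule set after clusters had been seen.

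The 7 genes and the lists were chosen with earlier results of these data known. Named were the 7 genes, called pathway genes, promoter regions, the 2 called regions with the largest fold per direction, the 2 most alike genes and let-7 or miR-125 loci with a peak in all samples. Intervals are exact Poisson intervals at 95% for counting error. Alternatives were other scaling, filters, peak sets, covered length as an offset, a replicate block and leaving out samples. A gene that the rule for named genes would also name is not reported here.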

Additional observations from a re-analysis of the deposited data

Results flagged for a closer look

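Among 38 groups of the 6 GE samples examined, 3 held a sample whose gap to its nearest neighbour took a larger share of the whole range than Dixon's critical value allows, where chance gives about 1 in 20. Lin28a in LGE replicate 2 stood at 106.4 CPM against 30.2 to 48.6 in the other 5, and 60.2% of its counts lay in the peak shared with Dhdds. Lin28b in MGE replicate 2 was at 119 CPM, with the others at 94.9 to 101. The log2 ratio of progenitor-like to GABAergic neuron-like CPM of Igf2bp1 was 0.43 in MGE replicate 2, and 0.11 to 0.20 in the others.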

How the results depend on the processing

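For CTX against GE no alternative called any of the 7 genes except leaving out CTX replicate 2, where the spread comes from the GE pairs alone, which called 2 (Lin28a at a log2 fold of -3.50 and Lin28b at -1.03). Some folds changed sign: Hmga2 to -0.022 over start-site peaks, Hmga1 to 0.060 with the covered-length offset, 0.053 over start-site peaks and 0.042 in shared regions, Igf2bp2 to 0.0085 with DESeq2, and Igf2bp3 from 0.30 to -0.14 with the offset and -0.14 over start-site peaks. Leaving out samples gave folds of -0.43 to 0.27 for Hmga1, 0.05 to 0.39 for Hmga2, -3.50 to -0.04 for Lin28a, -1.03 to 0.065 for Lin28b, -0.34 to -0.03 for Igf2bp1, -0.051 to 0.015 for Igf2bp2 and 0.23 to 0.36 for Igf2bp3. Pathway genes called numbered 4 of 40 with DESeq2 (15.0% of all genes), 0 with the offset (0.0615%), 0 over start-site peaks (1.03%) and 0 to 3 with samples left out (1.3% to 10.4%). Regions of the 7 genes called numbered 10 with DESeq2 (23.1% of all regions) and 3 to 17 with samples left out (6.26% to 26.3%). In the class comparison 4 genes were called over start-site peaks, where Lin28a was -0.13, and over peaks of a single gene, an alternative chosen after seeing the data, Lin28a was -0.075. The cause of these changes was not tested.

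The offset moved the median log2 fold of all genes to -0.15 and total-count scaling to -0.10. Over both CTX libraries the folds of Lin28a and Lin28b remained below these medians, and neither was called. Without CTX replicate 1, in the main setting, their folds were -0.04 and 0.065. Igf2bp3 was level with the median under the offset and above it at 0.20 with total-count scaling. All genes called in CTX against GE numbered 782, and 10 with the offset, 162 over start-site peaks, 2595 with DESeq2 and 230 to 1834 with samples left out. Same-numbered samples were not shown to be paired, as the correlation of replicate differences between regions ran from -0.129 to 0.498; with the replicate number as a block 0 of the 7 genes, 3 of their regions, 599 genes in all and 9335 regions in all were called. Lin28a had its fewest counts in CTX replicate 1 (427 over 1.95 kb of peaks), although that sample had the most counts in peaks.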
